A study of Caenorhabditis elegans with 2 samples.

Results

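The Wnt/β-catenin asymmetry genes described here are 10 genes of Caenorhabditis elegans chosen by name: pop-1, sys-1, wrm-1, lit-1, bar-1, hmp-2, apr-1, pry-1, mig-5 and gsk-3. They are 10 of the 19973 protein-coding genes of the nuclear chromosomes, and every region recovered with the transcription factor EGL-13 from 2000 bp upstream of each gene to its end was collected. EGL-13, a SOX family HMG-box factor, carried a C-terminal GFP-FLAG tag in the strain used, GOU883, and whole hermaphrodite larvae of the L1 stage were the material. Larvae were taken 6 h after synchronization of starved, bleach-derived L1 animals, and chromatin was precipitated with an antibody to GFP. The single group held 2 biological replicates of the same strain, which the labels number 3 and 4, so no condition is contrasted and no difference between groups is tested. Age is given as unknown in the labels, and the control library was not analysed here. Chromatin of all tissues was mixed: a site bound in few cells and a site bound weakly in many cannot be told apart.

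In C. elegans, Wnt signals orient divisions that give daughters different fates. The β-catenin WRM-1 acts with the Nemo-like kinase LIT-1 to lower nuclear POP-1, the TCF/LEF transcription factor, while the β-catenin SYS-1 serves as its coactivator, so that the ratio of SYS-1 to POP-1 differs between daughters. BAR-1 is the β-catenin of the canonical branch and HMP-2 that of cadherin junctions. MIG-5 is a Dishevelled protein that relays the receptor signal, and APR-1 (APC), PRY-1 (Axin) and GSK-3 (glycogen synthase kinase) belong to the machinery that destroys or redistributes β-catenin.

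The results rested on 5 sites, and the 101 bp around the summit of 3 of them, at mig-5, wrm-1 and lit-1, are shown first because they are the sequences recovered at a Dishevelled, a β-catenin and a kinase gene. The fourth line, from cbp-1, which encodes the CBP/p300 coactivator, is shown as a site of another pathway gene with nearly the strength of mig-5. Each is on ce11, read 5′ to 3′ on the strand of the gene, with matches to 7 searched hexamers in capitals. None of these windows overlapped an annotated UTR or coding sequence. They lie at chrII:8185161-8185261 (minus strand), chrIII:5722008-5722108 (plus), chrIII:13716994-13717094 (plus) and chrIII:9765581-9765681 (plus).
mig-5: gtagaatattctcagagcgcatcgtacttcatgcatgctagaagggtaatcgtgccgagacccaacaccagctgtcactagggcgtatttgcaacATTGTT
wrm-1: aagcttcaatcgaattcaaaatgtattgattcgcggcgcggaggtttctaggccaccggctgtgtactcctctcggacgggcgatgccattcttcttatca
lit-1: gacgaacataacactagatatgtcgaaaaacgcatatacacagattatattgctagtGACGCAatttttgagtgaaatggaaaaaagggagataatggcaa
cbp-1: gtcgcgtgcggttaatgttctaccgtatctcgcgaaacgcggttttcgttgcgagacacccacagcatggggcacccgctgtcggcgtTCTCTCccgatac

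Of the 10 genes, 5 had a region of the authors' optimal list in their window: mig-5, wrm-1, hmp-2, lit-1 and pop-1. Each had 1 region, and the list was cut at a threshold of reproducibility. Among all protein-coding genes, 12% had an optimal region. The genes without one were sys-1, bar-1, apr-1, pry-1 and gsk-3. Of the 4 β-catenin genes, wrm-1 and hmp-2 had a site in this window and sys-1 and bar-1 had none. The destruction-complex members apr-1, pry-1 and gsk-3 had none, but 2 of 3 other genes of that group, kin-19 and lin-23, did. The split also depended on the window. With 1000 bp upstream hmp-2 had no site, and with 5000 bp sys-1 and gsk-3 each had one. Counts this small do not set the branches apart. Signal values come from the authors' peak calling on a scale that no source used here defines, and they serve to rank regions within a list. The 5 regions had pooled signal values of 405.6 at mig-5, 175.6 at wrm-1, 104.1 at hmp-2, 99.3 at lit-1 and 65.8 at pop-1, against a median of 102.0 over the 2294 optimal regions. The order of the 5 was the same in replicate 3 and in replicate 4. Among the 10 genes, 2 (mig-5 and wrm-1) had a region of rank 500 or stronger, against 3.29% of protein-coding genes, and none had more than 1 optimal region, which 1.42% did.

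The windows of the 10 genes were longer than most, with a median of 7.09 kb against 4.03 kb for all protein-coding genes, and longer windows held regions more often. Of genes with a window under 5 kb, 9.02% had an optimal region, and so did mig-5, the 1 member of that class. Between 5 and 10 kb the share was 15.7%, and 2 of 7 members (wrm-1 and hmp-2) had one. At 10 kb or more it was 26.7%, and both members (pop-1 and lit-1) had one. Per length, the members held 5.62 optimal regions per 100 kb of window, against 2.67 per 100 kb over all gene windows. Without lit-1, whose window spans 24.4 kb, the density of the members was 6.20. Overlapping windows of neighbouring genes were each counted in full. All gene windows thus held 2786 counts, although the optimal list has 2294 regions, and 2.67 is not a density along the genome. With 10 genes chosen by name after results of these data were known, these are descriptions and no test was made.

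**Figure D1:**
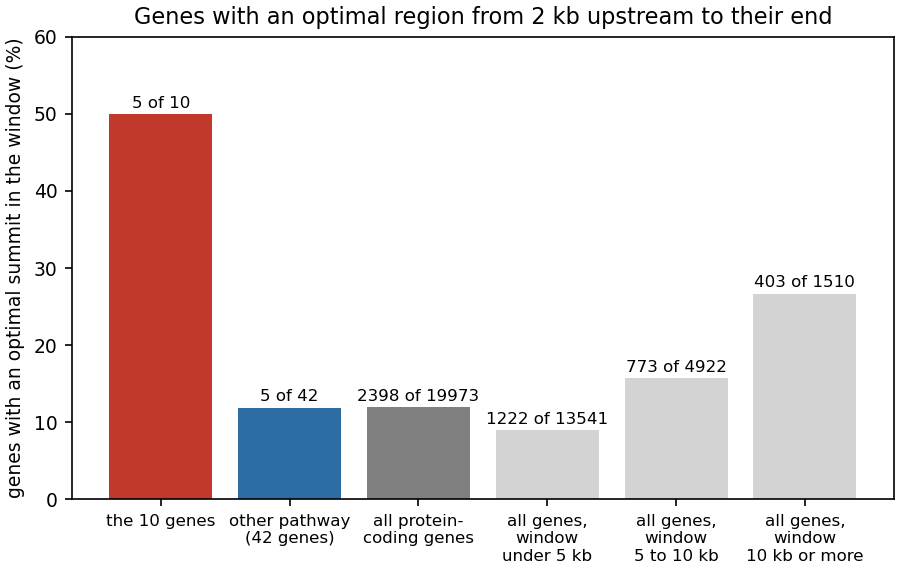
Share of genes (y axis, percent) with an optimal summit from 2 kb upstream to the gene end, for the 10 genes, 42 other Wnt pathway genes, all 19973 protein-coding genes and, in pale bars, all genes by window length. The 10 genes stand at 5 of 10, the other pathway genes at 5 of 42 and all genes at 2398 of 19973.

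mig-5, one of the Dishevelled genes, had the strongest site (WBGene00003241, chrII:8182323-8185023, minus strand). Its region, chrII:8185096-8185311, spanned 216 bp, narrower than the median optimal region of 384 bp, and ranked 57 of 2294. The summit lay 188 bp upstream of the 5′ end shared by transcripts T05C12.6a.1 and T05C12.6c.1, and 190 bp upstream of T05C12.6b.1. The signal value was 264.1 in replicate 3 (rank 62 of 30000) and 140.0 in replicate 4 (rank 78), with summits 11 and 21 bp from the pooled one. Both replicates therefore placed it among their strongest regions, within 32 bp of each other. The summit sits in a gap of 419 bp between mig-5 and the divergent gene cct-1, a subunit of the cytosolic chaperonin, whose 5′ end is 232 bp away, so the site cannot be assigned to one of them from position. A second pooled region, 1190 bp upstream in a coding exon of cct-1, had a signal value of 19.8 (rank 27541), and no replicate summit lay within 100 bp of it. The nearest replicate 3 region, 1073 bp upstream of mig-5, ranked 26494 there.

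wrm-1 had the second strongest site (WBGene00006943, chrIII:5722850-5727115, plus strand). The region, chrIII:5721866-5722249, ranked 463, with its summit 792 bp upstream of transcript B0336.1a.1 and 1581 bp upstream of the shorter B0336.1b.1. The signal value was 112.5 in replicate 3 (rank 477) and 66.6 in replicate 4 (rank 447), with summits 1 and 15 bp from the pooled one. It was the one pooled region of the wrm-1 window. The site lay between genes, in a gap of 5263 bp whose other side is the 3′ end of arf-1, 4472 bp away, so wrm-1 was the gene with the nearest 5′ end. Replicate 4 alone had a further region, 13 bp downstream of the B0336.1b.1 5′ end in a coding exon, at rank 22872.

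lit-1 had more regions than any other of the 10 genes (WBGene00003048, chrIII:13701991-13724404, plus strand, 22.4 kb). Its optimal region, chrIII:13716852-13717235, ranked 1204 and lay in an intron. The gene has 7 annotated transcripts, and the summit lay 921 bp upstream of W06F12.1b.1, 1315 bp upstream of W06F12.1e.1 and 2352 bp upstream of W06F12.1c.1. It lay 2999 bp downstream of the 5′ end of W06F12.1a.1 and between 14903 and 15053 bp downstream of the 3 long W06F12.1d transcripts. So it was upstream of 3 of the 7 transcripts and inside the other 4. The signal value was 51.8 in replicate 3 (rank 1680) and 47.4 in replicate 4 (rank 861), with summits 23 and 4 bp away.

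The pooled list held 14 further regions at lit-1, and the first 11 kb of the gene held none of them. One lay 950 bp upstream of the gene (signal value 23.6) and the other 13 began 11068 bp into it, in the part where the shorter transcripts start. The strongest of these, 16651 bp from the gene's 5′ end and 283 bp downstream of that of W06F12.1e.1, had a signal value of 58.6 and rank 2673, just below the optimal list. Replicate 3 ranked it 2243, within its strongest 2294, and replicate 4 ranked its nearest summit, 90 bp away, 6258. Next came the region 986 bp upstream of W06F12.1a.1 with 44.7 (rank 4171 pooled, 2364 in replicate 3), which had no replicate 4 summit within 100 bp. The region 50 bp upstream of the same transcript had 36.1 (rank 6401), with summits in both replicates at ranks 12439 and 6400. Of the others inside the gene, 5 had signal values between 24.4 and 34.9 and a summit within 100 bp in at least 1 replicate. They lay 373 bp upstream of W06F12.1b.1 (34.9), 97 bp downstream of the 5′ end of W06F12.1c.1 in its 5′ UTR (24.4), 18764 bp into the gene (26.9), 20617 bp into it in a coding exon (34.3) and 21980 bp into it in the 3′ UTR (25.6). The region in the 5′ UTR was called by replicate 4 at rank 3119 and had no replicate 3 summit within 100 bp. The region 19528 bp into the gene (27.4) had a summit within 100 bp in neither replicate. The last 4, at 14430, 16854, 20816 and 21067 bp, had signal values from 19.7 to 22.7. In replicate 3 the lit-1 window held 19 regions, 5 of them between 592 and 9102 bp into the gene with ranks from 21228 to 27758. In replicate 4 it held 10, none of them before 12012 bp.

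**Figure D2:**
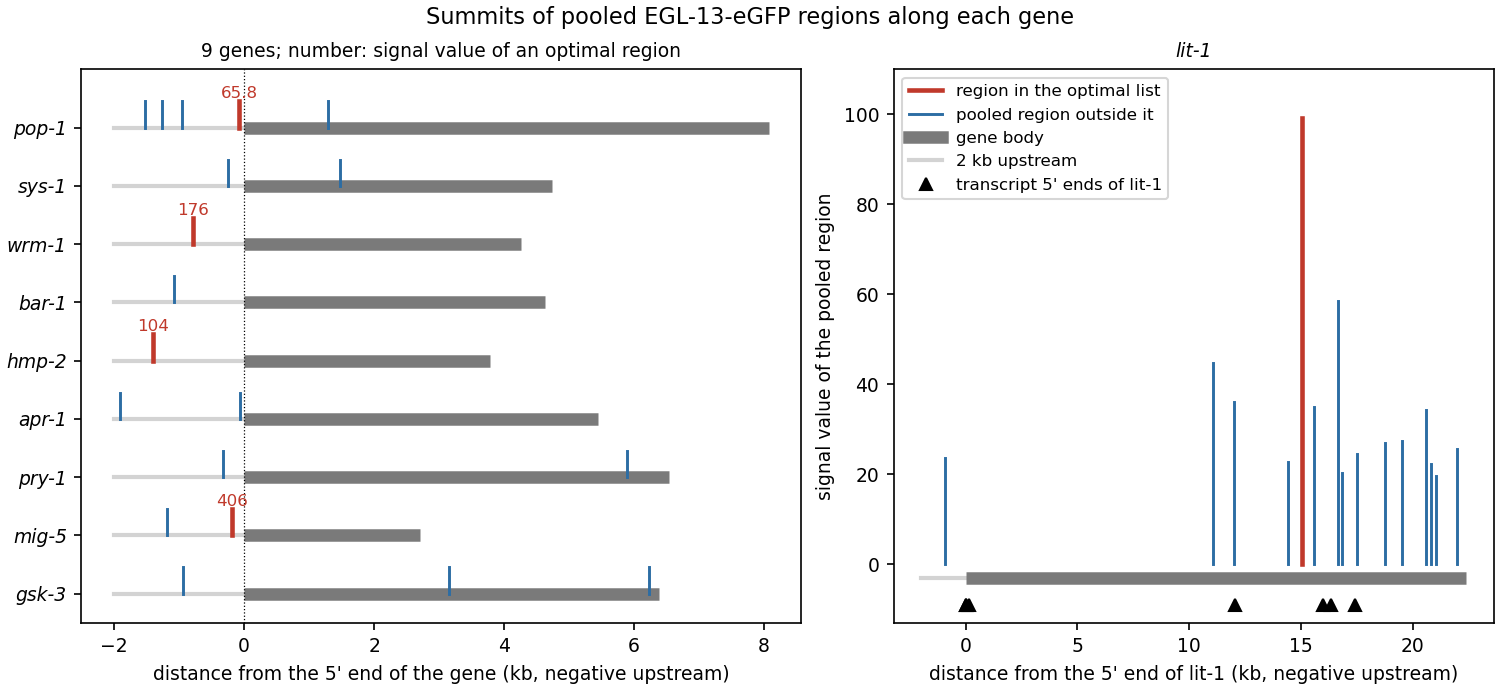
Summits of all 34 pooled regions relative to the 5′ end of each gene (x axis, kb). Left, 9 genes with the signal value printed over each optimal region. Right, lit-1, with signal value on the y axis and triangles at transcript 5′ ends; its optimal region (99.3) and 13 weaker ones fall 11068 bp or more from its start.

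hmp-2, the β-catenin gene of cell junctions, had its site far upstream (WBGene00001979, chrI:14738882-14742671, plus strand). The region, chrI:14737293-14737676, ranked 1105, with the summit 1397 bp upstream of K05C4.6b.1 and 2106 bp upstream of K05C4.6a.1. The signal value was 59.4 in replicate 3 (rank 1343) and 49.7 in replicate 4 (rank 782), and the replicate summits lay 26 and 0 bp from the pooled one. The protein-coding gene K05C4.7 lies between the site and hmp-2 and has the nearest 5′ end, 217 bp downstream of the summit. The site fell in the 506 bp gap between K05C4.4 and K05C4.7, so hmp-2 was not the gene with the nearest 5′ end. K05C4.7 (chrI:14737702-14738796) is on the plus strand, as is hmp-2. Position cannot assign the site to one of these 2 genes. No other region of any list lay in the hmp-2 window.

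pop-1, which encodes the TCF/LEF factor at the end of the pathway, had the weakest of the 5 sites (WBGene00004077, chrI:2822243-2830311, minus strand). The region, chrI:2830196-2830579, ranked 2270 of 2294, close to the lowest optimal signal value of 65.3, with its summit 77 bp upstream of the gene's one transcript, W10C8.2.1. The signal value was 44.3 in replicate 3 (rank 2130) and 22.4 in replicate 4 (rank 3459). It was the one of the 5 sites that was not among the strongest 2294 regions of both replicates. The replicate summits lay 126 bp upstream of pop-1 in replicate 3 and 17 bp upstream in replicate 4, 109 bp apart, while each was within 100 bp of the pooled summit. The summit also lay in the exon of W10C8.14, a noncoding RNA gene on the other strand, 53 bp from its 5′ end. The next protein-coding gene on that side, ccb-2, starts 15471 bp away.

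Upstream of pop-1 the pooled list held 3 more regions, 958, 1258 and 1528 bp from the 5′ end, with signal values of 23.9, 25.8 and 39.6. Replicate 3 had a summit within 100 bp of all 3, at ranks 24438, 3728 and 3244, and replicate 4 of none. The region 1258 bp upstream overlapped exons of the noncoding RNA genes W10C8.8 and W10C8.12. A region 1294 bp downstream of the 5′ end, in an intron, had 19.8 (rank 27538) and a replicate 3 summit at rank 12758. Replicate 4 alone had regions 713 and 3390 bp into the gene and 699 bp upstream, with ranks from 13002 to 28065. The pop-1 upstream stretch was thus recovered mainly in replicate 3 apart from the site at its 5′ end.

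**Figure D3:**
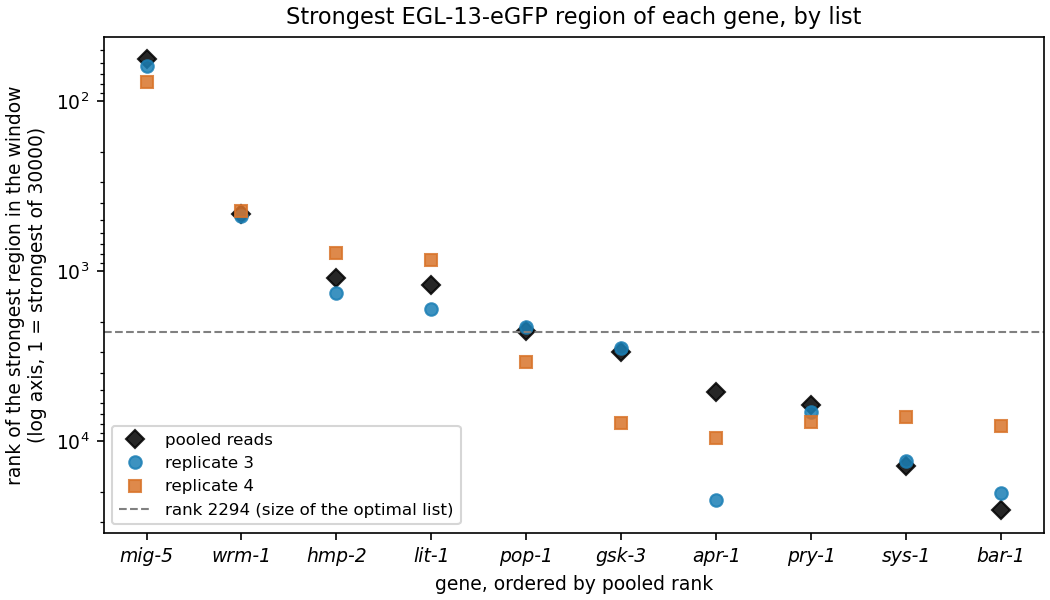
Rank (y axis, log scale, 1 = strongest of 30000) of the strongest region in the window of each gene in the pooled, replicate 3 and replicate 4 lists. The genes mig-5, wrm-1, hmp-2 and lit-1 ranked 2294 or stronger (dashed line) in all 3 lists, pop-1 in 2 of them, and the other 5 in none.

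All 10 genes had at least 1 pooled region in their window, against 68.6% of protein-coding genes, and all had at least 1 region in replicate 3 (67.9% of genes) and in replicate 4 (69.6%). These lists of 30000 regions include background by design, and the members' windows were longer than most. Per length, with overlapping windows again each counted in full, the members held 38.2 pooled regions per 100 kb of window. All gene windows held 29.7, and the members without lit-1 held 29.4. Among the 5 genes outside the optimal list, gsk-3 came closest, with a region in its 3′ UTR, 6226 bp downstream of the 5′ end (WBGene00001746, chrI:12819216-12825602, plus strand). It had a pooled signal value of 54.6 and rank 2987, with 36.8 in replicate 3 (rank 2833) and 16.4 in replicate 4 (rank 7804). The other gsk-3 regions, 934 bp upstream and 3157 bp into an intron, had 23.4 and 21.4. Neither had a summit within 100 bp in both replicates.

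apr-1, the APC gene, had a pooled region 1908 bp upstream with a signal value of 39.97 (rank 5191), in an intron of the neighbouring gene K04G2.7 (apr-1 is WBGene00000156, chrI:8050037-8055475, plus strand). Its replicate summits ranked 22391 in replicate 3 and 9686 in replicate 4. A weaker one lay 61 bp upstream of K04G2.8a.1 (23.2), with replicate ranks of 29966 and 15589. The pry-1 gene, for Axin, had a region 333 bp upstream of its transcript C37A5.9.1 with 36.7 (rank 6149), found at rank 6806 in replicate 3 and 7771 in replicate 4 (WBGene00004202, chrI:14172828-14179360, minus strand). Its replicate summits lay 5 and 63 bp from the pooled one. A second pry-1 region, 5898 bp into the gene, had 20.3 and no replicate 4 summit within 100 bp.

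The other β-catenin genes had only weak regions. sys-1 had a pooled region 242 bp upstream of T23D8.9a.1 with 26.3 (rank 14068), which replicate 4 alone supported (rank 7277), and one in an intron, 244 bp upstream of T23D8.9c.1, with 20.4 (rank 25761), which replicate 3 alone supported (rank 13101; WBGene00006379, chrI:9980063-9984794, minus strand). bar-1 had 1 pooled region, 1082 bp upstream of C54D1.6.1, with 20.5 (rank 25616), supported by replicate 3 at rank 20215 (WBGene00000238, chrX:7166005-7170625, minus strand). Replicate 4 had its one bar-1 region elsewhere, 1948 bp upstream, at rank 8203. No region of these 2 genes was therefore found at the same place in both replicates.

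Just outside the windows lay 3 stronger regions. An optimal region with a signal value of 322.8 (rank 124) had its summit 162 bp past the 3′ end of sys-1, at chrI:9979901, and 239 bp from the 5′ end of eif-3.C, a translation initiation factor 3 subunit gene. Another lay 4205 bp upstream of sys-1 with 127.0 (rank 798), 133 bp from the histone gene his-68. The third lay 3238 bp upstream of gsk-3 with 296.5 (rank 159), in a coding exon of Y18D10A.4, 74 bp from its 5′ end. For bar-1, apr-1 and pry-1 the nearest optimal summit was 11176, 25304 and 59478 bp from the gene.

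The optimal list was cut at a threshold of reproducibility and equals the 2294 strongest pooled regions. Its regions were not each selected by replicate support, and support at them is a description. All 5 optimal member regions had a summit within 100 bp in both replicates, against 93.5% of the 2294 optimal regions, and 4 of the 5 were among the strongest of both, against 64.8%. Of the 29 pooled member regions outside the optimal list, 8 had a summit within 100 bp in both replicates, 15 in replicate 3 only, 3 in replicate 4 only and 3 in neither. For all 30000 pooled regions the same 4 counts were 7932, 10630, 6736 and 4702. Of these, the 2294 optimal regions made up 2146, 106, 40 and 2, and the remainder lay outside the optimal list. Of all 34 pooled member regions, 13 (38.2%) were supported by both, against 26.4% of the 30000 pooled regions. Both shares include optimal regions, of which 93.5% over the whole list had a summit within 100 bp in both replicates. These were 5 of the 34 and 2294 of the 30000, so the 2 shares are not on an equal footing. The precision of a site rests on these 2 replicates, since the files give no read counts and depth is unknown.

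**Figure D4:**
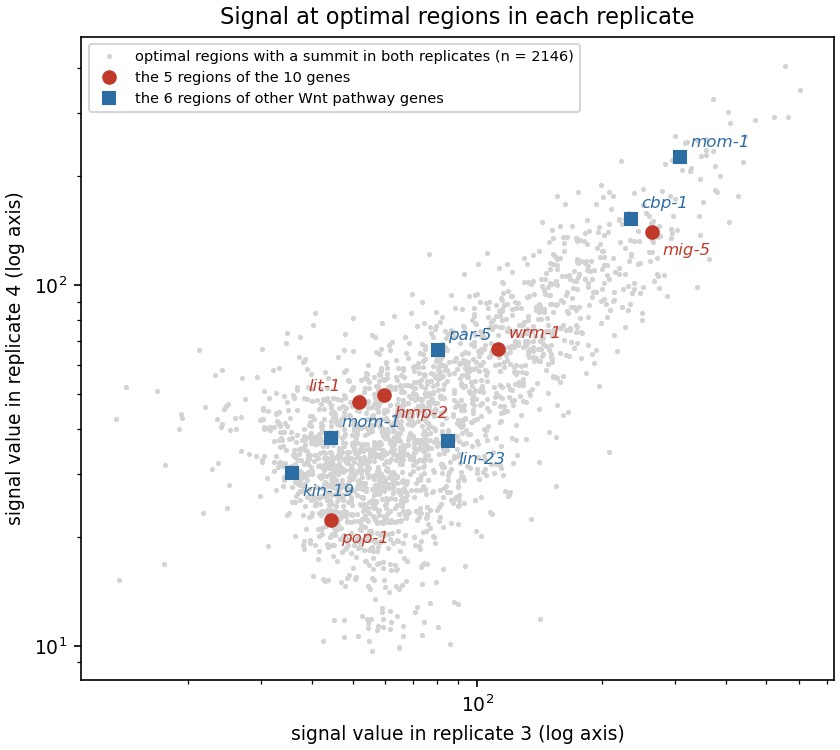
Signal value in replicate 3 (x axis, log) against replicate 4 (y axis, log) at the 2146 optimal regions with a summit within 100 bp in both, with the 5 member regions in red and the 6 of other pathway genes in blue. mig-5 (264.1 and 140.0) lies among the strongest, and pop-1 (44.3 and 22.4) is the lowest member in both.

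By position, 4 of the 5 optimal regions lay upstream of their gene and 1 (lit-1) inside it. In a narrower promoter window (1000 bp before to 200 bp after any transcript 5′ end), 4 of the 10 genes had a site (pop-1, lit-1, mig-5 and wrm-1), against 8.4% of protein-coding genes. The lit-1 site counts there through W06F12.1b.1. Of the 34 pooled regions, 17 lay in this window of at least 1 member transcript, 8 of them at lit-1. By annotation, 15 of the 34 lay upstream of the member, 14 in its introns, 2 in its coding exons and 3 in its UTRs. Of the 34, 15 were in the window of lit-1 alone. Matching counts over all optimal or pooled regions are not given. The positions of regions therefore describe the members and do not show whether their placement differs from that of regions in general. The annotated 5′ end of many C. elegans genes is a trans-splice site, so transcription may start further upstream than the distances here imply.

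The GC content of the 101 bp at the summit was 50.5% at wrm-1, 49.5% at hmp-2, 47.5% at mig-5, 42.6% at pop-1 and 34.7% at lit-1, against a median of 46.5% over optimal regions with quartiles of 39.6% and 52.5%. The lit-1 site was thus below the lower quartile and the other 4 were between the quartiles. The 7 hexamers were searched on both strands in the same 101 bp, and matches could overlap. Among the 5 sites AACAAT, a hexamer that SOX proteins bind, was at mig-5 only, 47 bp from the summit, against 6.15% of all optimal regions. GACGCA was at lit-1 only, 10 bp from the summit, against 15.3% of optimal regions and 3 of the 6 of other pathway genes, and CCGCCC at hmp-2 only, 45 bp away, against 5.32%. CTTTGA, the core of TCF sites such as those of POP-1, was at none of the 5 (4.23% of all optimal regions), nor were CACGTG (4.27%) or TGACGT (6.50%). GAGAGA, found at 25.4% of optimal regions, was at none of the 5 but at 4 of the 6 optimal regions of the other pathway genes, those of cbp-1, par-5, kin-19 and the upstream region of mom-1. With 5 sites, counts of 0 and 1 do not set them apart from optimal regions as a whole, and a match is no evidence of use.

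For each member site, the optimal regions 1 rank above and 1 rank below are named by the nearest protein-coding 5′ end, which was up to 6287 bp away. Those beside mig-5 were nearest to egl-30, a Gq alpha subunit gene (410.2, 56 bp from its 5′ end), and to cpn-3, a calponin gene (402.8, 660 bp). Those beside wrm-1 were nearest to glb-32, a globin gene (175.8, 442 bp), and btf-1 (175.2, 229 bp). Those beside hmp-2 were nearest to Y34B4A.7 (104.2, 84 bp) and nhr-11 (104.0, 6287 bp), and those beside lit-1 to D1022.9 (99.3, 2199 bp) and F31D4.2 (99.2, 174 bp). Those beside pop-1, with 65.8 each, were nearest to T27A10.2 (4764 bp) and pcdr-1 (3714 bp). Likeness here is the pooled signal value alone.

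The rest of the Wnt pathway was taken from a list of 43 names, of which 42 matched the annotation. Of these 42 genes, 5 (11.9%) had an optimal region in the same window, close to the 12% of all genes, and 37 had a pooled region. None of the 5 ligand genes (lin-44, egl-20, mom-2, cwn-1 and cwn-2) had one, nor did the 6 receptor genes, plr-1, which acts in receptor turnover, the Dishevelled genes dsh-1 and dsh-2, the 3 planar polarity genes, the MAP kinase branch genes mom-4 and tap-1, or the 3 cadherin partners of HMP-2. None of the 8 target genes, such as mab-5, lin-39 and egl-5, had one. Among the 3 Dishevelled genes, mig-5 was thus the one with an optimal region in its window. Position cannot assign that site to mig-5 rather than to the divergent gene cct-1. The strongest pooled regions of dsh-1 and dsh-2 had 24.5 and 28.5.

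The 5 other genes with a site act in ligand secretion, in destruction of β-catenin or beside POP-1. mom-1, the Porcupine gene for Wnt secretion, had 2: an intronic region of rank 28 with a signal value of 535.6, stronger than that of mig-5, and one 732 bp upstream with 83.0. The upstream summit lay 31 bp from the 5′ end of a tRNA gene and 648 bp from that of lev-9. cbp-1, for the CBP/p300 acetyltransferase, had one 878 bp upstream with 395.0 (rank 60), at ranks 85 and 57 in replicates 3 and 4. par-5, for the 14-3-3 protein that acts in POP-1 export, had one 114 bp upstream with 133.8, within exons of the noncoding RNA genes M117.11 and M117.12 and 168 bp from the 5′ end of the divergent gene M117.3. lin-23, for the F-box protein of β-catenin turnover, had one 941 bp upstream with 120.5. kin-19, for casein kinase I alpha, had one 1164 bp upstream with 80.6, which was among the strongest 2294 of replicate 4 and not of replicate 3.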

How the data were processed

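The authors deposited narrowPeak region lists on ce11: 1 per replicate and 1 of pooled reads, each of 30000 regions with background as input to IDR (a reproducibility measure between ranked lists), and an optimal list cut at an IDR threshold. Per the deposited file descriptions, an alignment of control reads entered too. The sources used here name no aligner, peak caller or threshold. Per the file headers' narrowPeak order, the deposited columns hold a signal value, a −log10 q value and a summit offset. Signal values gave ranks within a list. Since 1134 of the deposited optimal regions shared the highest −log10 q, 3.36, it gave no ranks. The optimal list equals the 2294 strongest regions of the pooled list.

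Genes and transcripts came from Ensembl release 115 (WBcel235, the assembly of ce11), and no region ran past a chromosome end. Sequences came from the RefSeq genome of the same assembly. A replicate supported a region where its summit lay within 100 bp. Positions are 1-based. The members and lists were chosen with earlier results of these data known, so counts are descriptions without tests. By rule, genes named were the members, other pathway genes with an optimal region, genes with a 5′ end within 1000 bp of an optimal member summit, and the nearest 5′ ends of regions 1 rank above and below. Outside this rule, and chosen after values were seen, are genes that flank a site (arf-1, ccb-2, K05C4.4), genes at weaker or outside regions, and the pathway genes named as having no optimal region. Alternatives covered the window, summit rule, threshold, replicates and assignment to the nearest 5′ end, the last chosen after seeing the data. Counting was tested on simulated data. ce10 lists were not used. Computation used Python 3.11.15, NumPy 2.4.6, pandas 2.3.3, SciPy 1.17.1 and matplotlib 3.10.9.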

Additional observations from a re-analysis of the deposited data

How the results depend on the processing

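The count of 5 of 10 genes with an optimal region was 4 (mig-5, pop-1, lit-1 and wrm-1; hmp-2 dropped out) with 1000 bp upstream, in the promoter window alone and with each region given to its nearest 5′ end, and 7, with gsk-3 and sys-1, at 5000 bp upstream. It was 5 where any base of a region in the window counted. With regions among the strongest of both replicates it was 4, without pop-1. In the stronger 50% of the optimal list 3 genes and 3 regions were left, since lit-1 and pop-1 fell below it. Among the strongest pooled regions, 2 times as many as the optimal list, 6 genes held 8 regions, and 14 other pathway genes held one, and at 5000 bp upstream 8 other pathway genes did, against 5 in the reported window. With 1 replicate left out, the counts were 4 to 5 genes, 4 to 6 regions and 4 to 6 other pathway genes, and pop-1 was lost without replicate 3. The share of all protein-coding genes moved too: 9.81% with 1000 bp upstream, 17.2% with 5000 bp, 8.40% in promoters, 12.8% by overlap, 7.055% in the stronger 50%, 19.6% in the larger pooled set, 8.50% with both replicates, 9.53% by nearest 5′ end, and 11.6% to 11.7% with 1 replicate left out. Where a replicate summit also had to be among the strongest 2294 of its list, support in both replicates was 4 of 5. That count was the same within 50, 100 and 200 bp. With summits of any rank within 100 bp it was 5 of 5. Within 25 bp of the summit AACAAT and CCGCCC had no match, and within 100 bp CTTTGA matched at wrm-1. No paired analysis was possible because there is 1 group. Depth is unknown, so sites absent from a list may lie below detection.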
